A study of Caenorhabditis elegans with 16 samples.

Results

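The lbp genes of Caenorhabditis elegans encode small lipid binding proteins of the fatty acid binding protein family. All 9 genes of the family that carry the names lbp-1 to lbp-9 were taken, by exact match of the gene name, from 42048 genes and other loci in the deposited tables, and all 9 were found. RNA came from whole bodies of day 1 adults in 16 libraries, 4 in each of 4 groups. The first group was the line TU3401 on the RNAi called Luc in the labels. The other 3 groups were the line that the labels call SHU47, with a glp-1 genotype and the TU3401 background in their titles, on Luc RNAi (the glp-1 control) or on RNAi to mml-1 or to mxl-2. All groups share maintenance at 20 °C and RNAi by feeding, with HT115 bacteria and the vector L4440. The glp-1 allele and any temperature shift are not given in the labels. TU3401, as known from the field, has the double-stranded RNA channel SID-1 only in neurons, which limits RNAi by feeding largely to these cells. GLP-1 is a Notch receptor that germ cells need to proliferate, and MML-1 (Mondo) and MXL-2 (Mlx) bind DNA as a pair.

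Fatty acid binding proteins hold a fatty acid in the cavity of a small barrel and carry it through the watery parts of a cell. In the worm some members also act as signals. LBP-8 carries lipid from the lysosome to the nucleus when the lysosomal lipase LIPL-4 is active, and there it acts with the nuclear receptors NHR-49 and NHR-80. LBP-3 is secreted from fat tissue under LIPL-4 and signals to neurons, where the neuropeptide gene nlp-11 is a target. LBP-1, LBP-2 and LBP-3 carry a signal for secretion and are related to As-p18, a protein of the fluid around the egg of the roundworm Ascaris. LBP-5 is known from work on fat storage together with NHR-49.

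The labels were examined first. Levels are given in RPKM, the reads of a gene scaled to its length and to the reads of its library, so they are shares of a library. Library totals recovered from the values ran from 18818680 to 27228111 reads. The gene glp-1 stood at 71.1 ± 3.02 RPKM in TU3401 and 3.29 ± 0.550 RPKM in the glp-1 control (SD, n = 4 each). The control held 35.2, 23.95, 11.9 and 11.2 RPKM of mml-1, while its own RNAi group held 23.8, 91.5, 28.9 and 22.9 RPKM. For mxl-2 the control mean was 24.7 ± 4.003 RPKM and the mean of its own RNAi group 225 ± 340 RPKM, with 733 RPKM in replicate 3. In TU3401 the mxl-2 mean was 81.2 RPKM (limma adjusted p = 3.36e-07 for the control against TU3401). The mean of neither target was lower under its own RNAi in these whole-body libraries, although mml-1 was lower than the control in 1 of 4 pairs, so the knockdown groups are named by their labels. The authors' deposited table gave mxl-2 a log2 fold change of 3.26 under its own RNAi, with a false discovery rate of 0.0107. In limma fits that left out 1 library, its lowest adjusted p was 0.469. The labels do not say that replicates were separate cultures, so p-values describe the spread of these libraries alone, and that spread may be technical.

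The gene models fell into clusters on 3 chromosomes (build WBcel235). On chromosome X, lbp-3 (3257372 to 3258155), lbp-1 (3259142 to 3259812) and lbp-2 (3260610 to 3261470) lay in a row on the plus strand within 4099 bases. No annotated gene lay between them, and the gaps were 986 and 797 bases. On chromosome I, lbp-6 (6728296 to 6729376) and lbp-5 (6731267 to 6732276) lay on the minus strand, 1890 bases apart with 1 annotated gene between. On chromosome V, lbp-7 (13879552 to 13880213) and lbp-8 (13890773 to 13891364) lay on the plus strand, 10559 bases apart with 4 genes between. The remaining genes, lbp-4 (7820578 to 7821477) and lbp-9 (2068449 to 2069142), stood alone on the plus strand of chromosome V. The coding regions of lbp-5, lbp-6, lbp-7 and lbp-8 each had 2 exons and encoded 135 to 137 residues. The other 5 genes had 3 or 4 coding exons and encoded 145 to 165 residues. The length behind each RPKM value, worked out from the values, equalled the longest coding sequence with its stop codon for all 9 genes.

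In TU3401, lbp-9 was the most abundant family member, and in the glp-1 control it ranked 5 of 9. In TU3401 the order of the mean levels was lbp-9, lbp-2, lbp-6, lbp-1, lbp-3, lbp-4, lbp-7, lbp-5 and lbp-8, from 1100.0 ± 50.7 down to 1.65 ± 0.716 RPKM (SD, n = 4). Among neighbours in that order only lbp-7 and lbp-5 had overlapping libraries. In the glp-1 control the order was lbp-2, lbp-6, lbp-3, lbp-1, lbp-9, lbp-5, lbp-7, lbp-4 and lbp-8, from 2191 ± 186 down to 11.01 ± 4.31 RPKM. There lbp-1 overlapped with lbp-9, lbp-5 with lbp-7, and lbp-4 with lbp-8. Both knockdown groups had 1 further order, lbp-2, lbp-6, lbp-1, lbp-3, lbp-9, lbp-5, lbp-7, lbp-4 and lbp-8. In both of them lbp-1 and lbp-3 overlapped, as did lbp-5 and lbp-7. With mml-1 RNAi lbp-2 and lbp-6 overlapped too, and with mxl-2 RNAi lbp-4 and lbp-8 did.

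**Figure D1:**
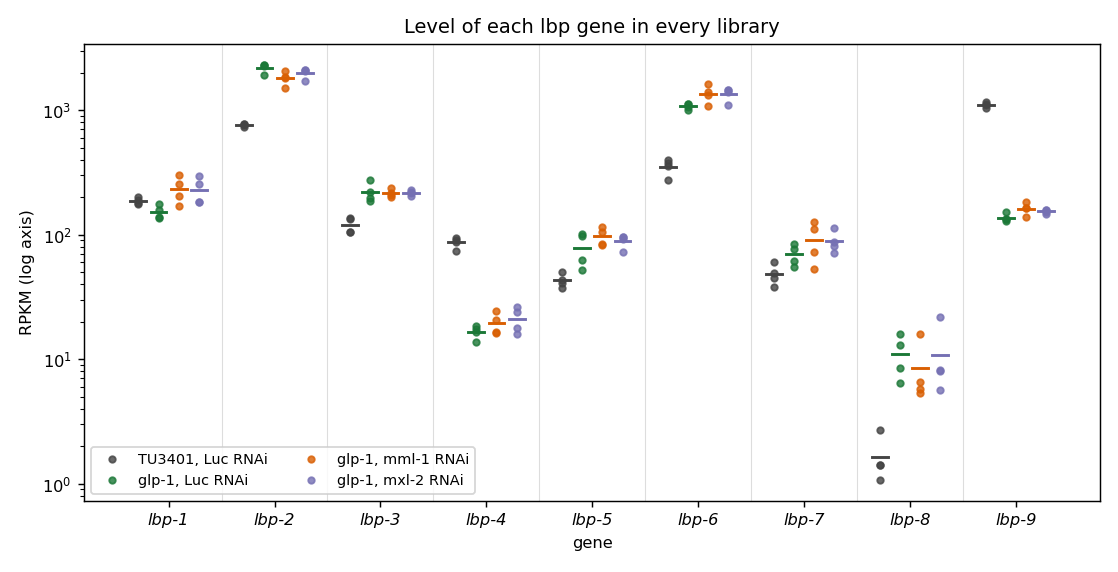
Level of each lbp gene in RPKM, on a log axis, with a point for each library and a line at the mean of each group of 4. The TU3401 points of lbp-4 and lbp-9 lie above all glp-1 points, and those of lbp-2, lbp-3, lbp-5, lbp-6 and lbp-8 lie below them.

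The comparison of the glp-1 control with TU3401 asks how worms with the glp-1 genotype differ on the same RNAi. Of the family, 6 genes rose (lbp-2, lbp-3, lbp-5, lbp-6, lbp-7 and lbp-8) and 3 fell (lbp-1, lbp-4 and lbp-9) at a limma adjusted p under 0.05. Of all 13563 genes tested, 87.6% were called, 41.5% higher and 46.1% lower, so a call for each of 9 members is near the background. For 8 members there was no overlap between TU3401 and control libraries, 5 above and 3 below, against 38.4% and 45.0% of all genes. The median log2 fold change was 0.80 over the members and -0.06 over all genes tested, and the median absolute value was 1.53 against 1.41. These are of RPKM + 1, which shrinks changes at low levels, and the genes were not matched to the members by level. Under quantile scaling the median of all genes was 0.42, with 6730 genes called higher and 5488 called lower. Median-ratio scaling put that median at -0.11. All 9 members kept their direction and call under both scalings. RPKM values in whole bodies do not tell fewer cells of a type apart from less RNA per cell.

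The largest fall was that of lbp-9. Its level was 1091, 1109.9, 1038 and 1161 RPKM in TU3401 replicates 1 to 4 and 129, 152, 133 and 134 RPKM in the glp-1 control, whose mean was 137 ± 10.3 RPKM (SD, n = 4). Every control library was far below every TU3401 library, an 8.03-fold difference of the means (-2.997 on the log2 scale, SE 0.07, limma adjusted p = 5.55e-10). The gene lbp-4 stood at 74.2, 87.5, 90.5 and 94.5 RPKM in TU3401 and at 16.5, 13.6, 17.4 and 18.6 RPKM in the control. These libraries did not overlap either, and the log2 fold change was -2.33 (SE 0.11, limma adjusted p = 5.00e-08). Quantile scaling gave -1.58 for lbp-4. The summed level of 8 germline markers was 3069 to 3325 RPKM in TU3401 and 32.9 to 41.5 RPKM in the control, and 8 of 8 were called lower. The summed level of 6 early embryo genes was 15.7 to 22.8 and 0.179 to 0.334 RPKM, with pes-10, end-3 and med-1 at 0 in all control libraries, and 2 of the 2 tested were lower. The summed level of 5 sperm markers went the other way, at 0.940 to 3.84 RPKM in TU3401 and 6.41 to 9.36 RPKM in the control, with the 1 tested, msp-31, called higher. The part of these markers in the lower lbp-4 and lbp-9 levels was not tested.

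The smallest fall was that of lbp-1, which lies between lbp-3 and lbp-2. It stood at 177, 180.4, 201 and 189 RPKM in TU3401 and at 138, 175, 135 and 158 RPKM in the control. The highest control library lay just under the lowest TU3401 library, and the log2 fold change was -0.30 (SE 0.10, limma adjusted p = 0.0140). In 1 fit over all 4 groups the adjusted p was 0.120, and in the authors' deposited table the false discovery rate was 0.806 with a log2 fold change of -0.14.

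Of the genes that rose, lbp-2 and lbp-6 had the highest levels. The gene lbp-2 stood at 772, 767, 761 and 727 RPKM in TU3401 and at 1915, 2312, 2284 and 2251 RPKM in the control. All control libraries were above all TU3401 libraries (1.53 on the log2 scale, SE 0.07, limma adjusted p = 5.62e-08). The gene lbp-6 stood at 274, 358, 378 and 398 RPKM in TU3401 and at 1126, 1009.6, 1062 and 1116 RPKM in the control. It rose 3.06-fold on the means (1.62 on the log2 scale, SE 0.12, limma adjusted p = 8.43e-07). At the top of the RPKM range, lbp-2 stood above 98.5% of the genes at 1 RPKM or more in TU3401 and above 99.6% in the control.

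The genes of the signalling carriers LBP-8 and LBP-3 also rose. The gene lbp-8 stood at 1.41, 2.69, 1.07 and 1.41 RPKM in TU3401 and at 15.99, 8.50, 13.1 and 6.48 RPKM in the control. The lowest control library was above the highest TU3401 library, although the control libraries differed widely among themselves. Its log2 fold change was 2.14 (SE 0.28, limma adjusted p = 7.01e-05), the highest of the family. That value is of RPKM + 1, which shrinks it at such low levels. The lbp-8 means differed 6.69-fold, and the authors' deposited table gave a log2 fold change of 2.90. This gene was read thinly, with 10 to 26 reads a library in TU3401 and 73 to 141 in the control, and 1 read was worth 0.0887 to 0.128 RPKM. The gene lbp-3 stood at 104, 104, 137 and 133 RPKM in TU3401 and at 197, 185, 221 and 273 RPKM in the control. Its groups did not overlap, and the log2 fold change was 0.86 (SE 0.15, limma adjusted p = 0.000401).

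The fat storage gene lbp-5 and the gene lbp-7 rose as well. The gene lbp-5 stood at 50.2, 40.8, 37.5 and 42.9 RPKM in TU3401 and at 51.6, 101, 62.6 and 96.7 RPKM in the control. Control replicate 1 lay just above the highest TU3401 library, and the log2 fold change was 0.80 (SE 0.22, limma adjusted p = 0.00677). The gene lbp-7 stood at 37.9, 44.9, 60.04 and 49.6 RPKM in TU3401 and at 54.5, 77.1, 61.6 and 83.9 RPKM in the control. Its groups overlapped, and the log2 fold change was 0.52 (SE 0.17, limma adjusted p = 0.0186). Without TU3401 replicate 1 the adjusted p of lbp-7 was 0.0523, and in 1 fit over all 4 groups it was 0.0607. Quantile scaling gave log2 fold changes of 1.48 for lbp-5 and 1.20 for lbp-7, beside 1.25 for lbp-6, 1.22 for lbp-2 and 1.02 for lbp-3, so the order of these 5 rises depended on the scaling.

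Markers of somatic tissues stood beside these rises. The summed level of 8 body wall muscle markers was 970.8 to 1099.6 RPKM in TU3401 and 3741 to 4089.9 RPKM in the control (8 of 8 higher), and that of 8 intestine markers was 1316 to 1827 and 2572 to 4206 RPKM (5 of 8 higher). For 8 neuron markers the sums were 562 to 619 and 613 to 803 RPKM (5 higher, 1 lower). For 8 hypodermis markers they were 598 to 830.5 and 867 to 1187 RPKM, with 2 higher and 4 lower of the 6 tested. The summed level of 3 coelomocyte markers was 10.03 to 10.7 and 35.9 to 40.1 RPKM (3 of 3 higher), and that of 4 somatic gonad markers was 16.4 to 21.7 and 34.4 to 38.5 RPKM (3 higher, 1 lower). The part of these tissues in the lbp rises was not tested.

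The summed level of the family was 2695 ± 87.6 RPKM in TU3401 and 3951 ± 214 RPKM in the glp-1 control, and its makeup differed too. The gene lbp-9 held 40.8% ± 1.69 of the sum in TU3401 and 3.47% ± 0.237 in the control (SD, n = 4). The share of lbp-2 was 28.1% ± 1.61 and 55.4% ± 2.33, and the share of lbp-6 was 13.03% ± 1.66 and 27.4% ± 2.499. The 4 genes with 2 coding exons summed to 445 ± 57.2 RPKM in TU3401 and 1237 ± 50.02 RPKM in the control, and all 4 rose. Of the 5 genes with more coding exons, 2 rose and 3 fell, with sums of 2250.01 ± 38.6 and 2715 ± 214 RPKM. Over all genes tested, 41.5% were called higher and 46.1% lower. The gene lbp-6 alone stood at 1078 RPKM of the control sum of the genes with 2 coding exons. Among these genes, lbp-7 was not called by limma in 1 fit over all 4 groups or without TU3401 replicate 1. This grouping by coding exons was chosen after the values were seen and carries no test. With mml-1 RNAi the family summed to 3989 ± 361 RPKM, and with mxl-2 RNAi to 4147 ± 246 RPKM.

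**Figure D2:**
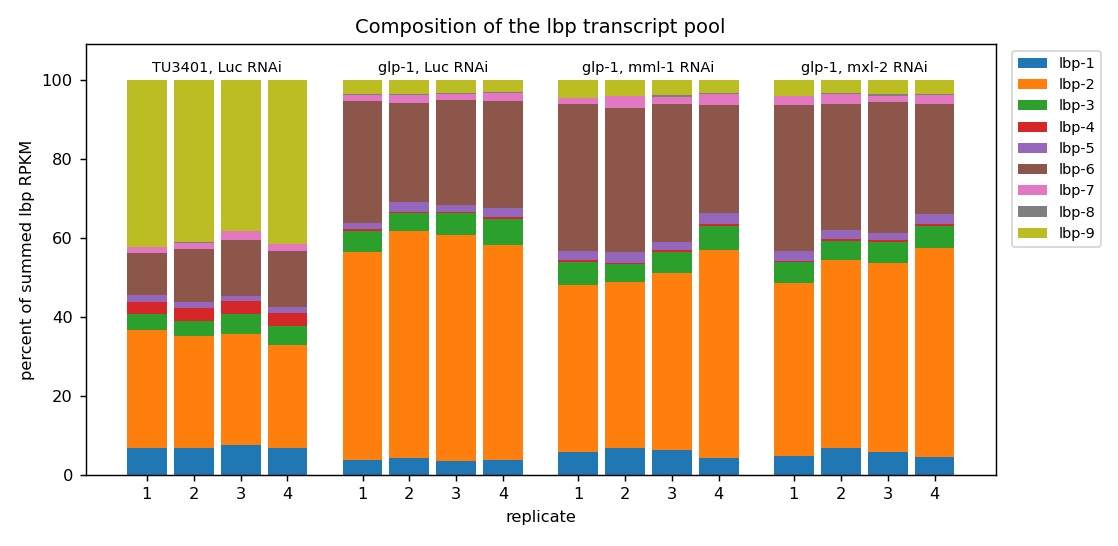
Share of the summed lbp RPKM held by each gene, in percent, with a bar for each of the 16 libraries. The lbp-9 share is 38.4% to 42.3% in TU3401 and 3.24% to 4.60% in the 12 glp-1 libraries.

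The 3 adjacent genes on chromosome X did not move together. In the glp-1 control lbp-3 and lbp-2 were higher than in TU3401, while lbp-1, between them, was slightly lower (-0.30 on the log2 scale). That fall depended on the fit, with a limma adjusted p of 0.120 in 1 fit over all 4 groups. In the authors' deposited table the lbp-1 value was -0.14, with a false discovery rate of 0.806. The RPKM ratio of lbp-2 to lbp-1 was 4.37, 4.25, 3.80 and 3.85 in TU3401 and 13.8, 13.2, 16.9 and 14.2 in the control. Under the label mml-1 RNAi that ratio was 7.41, 6.19, 7.15 and 12.2, and under the label mxl-2 RNAi it was 9.36, 7.07, 8.17 and 11.5. All 8 knockdown libraries thus lay below the 4 control libraries and above the 4 TU3401 libraries. The ratio of lbp-1 to lbp-3 was 1.58 ± 0.157 in TU3401, 0.710 ± 0.167 in the control, 1.09 ± 0.332 with mml-1 RNAi and 1.05 ± 0.240 with mxl-2 RNAi (SD, n = 4). The ranges of the lbp-1 to lbp-3 ratio overlapped between the control and both knockdowns. So did those of lbp-2 to lbp-3, at 8.25 to 12.5 in the control, 7.19 to 9.29 with mml-1 RNAi and 8.39 to 9.61 with mxl-2 RNAi. The share of other gene pairs that separate as lbp-2 and lbp-1 did was not worked out. The ratios were chosen after the values were seen, both knockdown groups are set against the same control libraries, and no test was made.

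**Figure D3:**
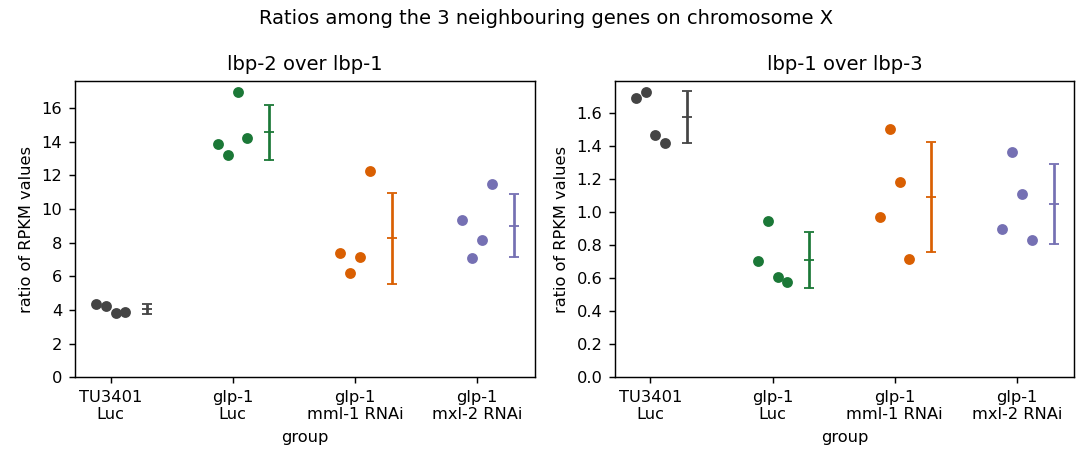
RPKM ratios among the neighbouring chromosome X genes, lbp-2 over lbp-1 and lbp-1 over lbp-3, with a point for each library and the mean with its SD beside each group of 4. The lbp-2 to lbp-1 ratio is 13.2 to 16.9 in the glp-1 control and 6.19 to 12.2 in the libraries labelled mml-1 RNAi.

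The genes that act around the lbp proteins were described from 5 lists. Beside 41.5% higher and 46.1% lower over all genes, 4 of 10 receptors and coactivators that respond to fatty acids rose and 4 fell in the glp-1 control. The receptor gene nhr-80 rose from 6.95 ± 1.74 to 25.8 ± 4.81 RPKM and nhr-62 from 2.78 ± 0.344 to 9.76 ± 1.87 RPKM. The receptor genes nhr-66 (54.2 ± 2.67 to 10.2 ± 2.33 RPKM) and nhr-13 (14.6 ± 0.825 to 5.19 ± 1.44 RPKM) fell. The receptor gene nhr-49 was at 77.2 ± 7.31 and 99.7 ± 38.8 RPKM and was not called (log2 fold change 0.30, limma adjusted p = 0.245). Under quantile scaling nhr-49 was called (0.77, adjusted p = 0.00326) and the list counted 7 higher and 3 lower.

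Of 10 tested lipase and lipid droplet genes 7 rose and 3 fell. The lysosomal lipase gene lipl-4 rose from 0.258 ± 0.0964 to 7.80 ± 1.93 RPKM, and limma gave an adjusted p of 2.37e-07 for its log2 fold change of 2.78 (SE 0.17). That value is of RPKM + 1 and is shrunk at this low level, and the lipl-4 means differed 30.2-fold. Its relative lipl-2 rose from 17.9 ± 5.60 to 164 ± 45.3 RPKM. The fat lipase gene atgl-1 fell from 64.7 ± 7.28 to 20.2 ± 5.82 RPKM, and lid-1, whose product binds ATGL-1 on lipid droplets, fell from 88.1 ± 2.90 to 33.9 ± 1.23 RPKM. Both scalings gave the same counts for this list.

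Of 18 genes of fatty acid use and desaturation 10 rose, 1 fell and 7 were not called. The carnitine palmitoyltransferase genes cpt-5 (1.91 ± 0.516 to 25.6 ± 5.32 RPKM) and cpt-3 (1.98 ± 0.621 to 21.8 ± 9.72 RPKM) rose, and cpt-6 fell from 14.8 ± 1.42 to 3.32 ± 1.25 RPKM. Of 23 other lipid carrier genes 20 rose and 2 fell. The fatty acid and retinol binding protein gene far-3 rose from 59.9 ± 30.1 to 3069.9 ± 271 RPKM, and dsc-4, a microsomal triglyceride transfer protein gene, rose from 14.6 ± 2.65 to 76.02 ± 7.53 RPKM. The acyl-CoA binding protein gene acbp-5 fell from 65.2 ± 3.03 to 15.8 ± 2.14 RPKM. The yolk receptor gene rme-2 stood at 377 to 414 RPKM in TU3401 and at 0 to 0.0338 RPKM in the control. Of 7 genes of peptides and their processing, 7 rose, among them nlp-11 (13.9 ± 1.96 to 50.5 ± 4.76 RPKM) and the proprotein convertase gene egl-3 (23.7 ± 2.79 to 79.96 ± 9.14 RPKM). Under quantile scaling the counts were 11 higher and 1 lower for fatty acid use, 17 and 3 for the other carriers and 7 and 0 for peptides. Median-ratio scaling left 19 carriers higher.

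The knockdown comparisons ask what the lbp genes do when RNAi against mml-1 or mxl-2 is fed to glp-1 worms. No lbp gene passed limma's test in either comparison, nor did any of the 10, 10, 18, 22 and 7 genes tested from the lists above. Of 12591 genes 0.0159% were called with mml-1 RNAi, and of 12581 genes 0.103% were called with mxl-2 RNAi. At an unadjusted p under 0.05 stood 3 members with mml-1 RNAi (7.82% of all genes) and 2 with mxl-2 RNAi (6.54% of all genes). With the replicate number as a block these counts were 6 (18.7%) and 4 (15.6%), and 60 and 24 genes were called in all, 0.477% and 0.191%. Leaving out 1 library moved the count of called genes from 2 to between 0 and 53 (53 without mml-1 RNAi replicate 4), and from 13 to between 1 and 16. The lowest adjusted p of a member in the blocked fits was 0.104 and 0.128. In a voom fit to the recovered reads, 0 members were called in both. With the block, lipl-2 of the lipase list and the intestine marker ges-1 were called lower with mml-1 RNAi, and far-3 of the other carriers with mxl-2 RNAi.

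**Figure D4:**
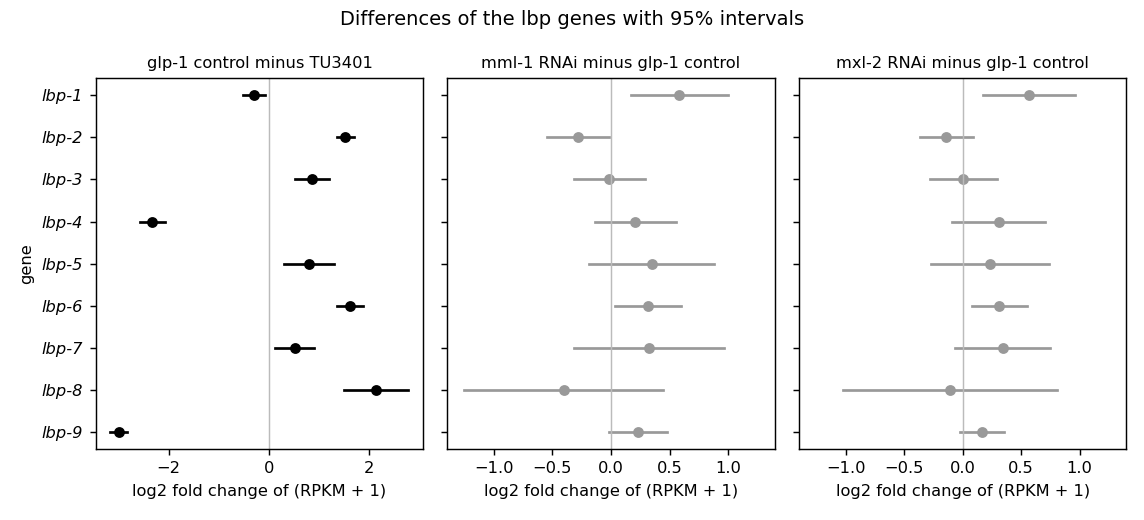
Log2 fold changes of RPKM + 1 for each lbp gene with 95% intervals from limma, black where called and grey where not, in 3 comparisons of 8 libraries each. The scale of the left panel is wider. The interval of lbp-1 runs from 0.17 to 1.00 with mml-1 RNAi and from 0.17 to 0.96 with mxl-2 RNAi.

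The member with the largest log2 fold change in both was lbp-1. With mml-1 RNAi its level was 202, 300.03, 253 and 169.6 RPKM. With mxl-2 RNAi it was 184, 293, 255 and 182 RPKM, and the control libraries held 138, 175, 135 and 158 RPKM. The mml-1 libraries overlapped the control, whereas all mxl-2 libraries lay above it, as for 2.15% of all genes in that comparison. The log2 fold change was 0.58 with mml-1 RNAi (95% interval 0.17 to 1.00, limma adjusted p = 0.450, higher in 4 of 4 pairs of the same number). With mxl-2 RNAi it was 0.57 (0.17 to 0.96, limma adjusted p = 0.503, higher in 4 of 4 pairs). With the block the adjusted p values were 0.117 and 0.128. In the authors' deposited tables the log2 fold changes were 0.61 and 0.60, with false discovery rates of 0.726 and 0.679. Both comparisons use the same control libraries, so these values are not independent.

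The other members differed less, and none passed the test. Over all 9 members the median absolute log2 fold change was 0.32 with mml-1 RNAi and 0.23 with mxl-2 RNAi. Over all genes tested it was 0.11 and 0.12, and no test was made of these medians. They are of RPKM + 1, which shrinks changes at low levels, and the genes were not matched to the members by level. The gene lbp-6 was at 1314, 1621, 1409 and 1081 RPKM with mml-1 RNAi and at 1454, 1387, 1444 and 1108 RPKM with mxl-2 RNAi. Its log2 fold changes were 0.32 (95% interval 0.03 to 0.60, limma adjusted p = 0.580) and 0.31 (0.08 to 0.55, limma adjusted p = 0.528). The gene lbp-2 was at 1499, 1858, 1811 and 2073 RPKM with mml-1 RNAi and at 1718, 2071, 2083 and 2088 RPKM with mxl-2 RNAi. It was lower than the control of the same number in 4 of 4 pairs in both, with log2 fold changes of -0.28 (-0.55 to -0.01, limma adjusted p = 0.602) and -0.14 (-0.36 to 0.08, limma adjusted p = 0.916). With the block, limma's adjusted p of lbp-2 with mml-1 RNAi was 0.104, the lowest of the family. Both pair counts use the same control libraries. The share of all genes at 4 of 4 pairs was not worked out, here or for lbp-1. The genes of the signalling carriers were lbp-8, with wide intervals of -1.25 to 0.45 and -1.02 to 0.81, and lbp-3, with intervals of -0.31 to 0.29 and -0.28 to 0.29. For lbp-4, lbp-5, lbp-7 and lbp-9 the log2 fold changes ran from 0.17 to 0.35 over both comparisons. The lbp-9 level was 161 ± 18.5 and 154 ± 5.12 RPKM (SD, n = 4) with mml-1 and mxl-2 RNAi, and germline marker sums were 29.5 to 39.7 and 34.1 to 45.5 RPKM. The level of lbp-9 thus stayed far below the 1038 RPKM of the lowest TU3401 library.

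Between the knockdown groups, 0.0% of 12540 genes were called and no lbp gene was. The unadjusted p was under 0.05 for 111 genes (0.885%) and for 0 members by limma, and voom called 0 as well. The log2 fold changes of the members, mxl-2 RNAi against mml-1 RNAi, ran from -0.11 for lbp-5 to 0.29 for lbp-8. Intervals were widest for lbp-8, from -0.71 to 1.30.

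Levels also varied within groups by the replicate number of the titles. In the 12 glp-1 libraries lbp-5 was lower in replicates 1 and 3 (51.6 to 92.5 RPKM) than in replicates 2 and 4 (94.97 to 116 RPKM). The gene lbp-7 was at 77.1 to 127 RPKM in replicates 2 and 4 and at 53.3 to 81.5 RPKM in replicates 1 and 3. The gene lbp-8 had its highest library of each knockdown group in replicate 3, at 16.04 and 21.7 RPKM, while in the control replicate 1 was highest. A limma F-test of the replicate number over these libraries, added after the values were seen, called lbp-1, lbp-2, lbp-5, lbp-7 and lbp-8 (adjusted p = 0.0358, 0.00746, 0.0373, 0.0199 and 0.0159). These are 5 of 9 members, beside 39.7% of 12558 genes tested.

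**Figure D5:**
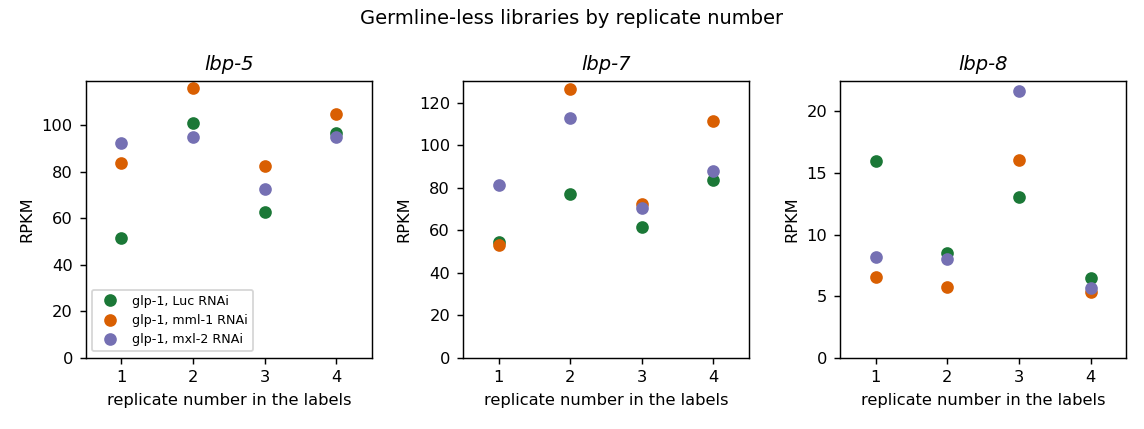
RPKM of lbp-5, lbp-7 and lbp-8 in the 12 glp-1 libraries by the replicate number in the titles, with a point for each library coloured by group. In lbp-8, replicate 3 is at 13.1, 16.04 and 21.7 RPKM and replicate 4 at 5.38 to 6.48 RPKM.

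For each member the gene with the most similar profile was looked up by Pearson's r of log2(RPKM + 1) over the 16 libraries, among 13498 genes. The libraries fall into 4 groups, and 87.6% of all genes tested were called between the glp-1 control and TU3401. A high r can thus come from that difference alone, so r is only a description. The closest to lbp-9 was the ribosomal protein gene rpl-11.1 (r = 0.999), which stood at 1872 RPKM in TU3401 and 14.02 RPKM in the control. The closest to lbp-2 was the galectin gene lec-5 (r = 0.996), to lbp-4 Y18D10A.9 (0.995), to lbp-6 the ATP synthase subunit gene asb-2 (0.991) and to lbp-3 ppat-1 (0.981). For lbp-5 it was C52E2.4 (0.953), for lbp-7 T28F3.9 (0.948), for lbp-8 T02B5.1 (0.937) and for lbp-1 the isocitrate dehydrogenase gene idha-1 (0.932). Low levels limit the matches of lbp-7, lbp-5 and lbp-8. The gene T28F3.9 stood at 0.37 RPKM in TU3401 and 1.04 RPKM in the control, and C52E2.4 at 1.86 and 4.10 RPKM. The gene T02B5.1 stood at 1.48 RPKM in TU3401 and 76.5 RPKM in the control. Within the family, the highest r was 0.966 for lbp-4 with lbp-9, and lbp-1 reached at most 0.445 with another member.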

How the data were processed

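Per the labels, the authors deposited 3 tables of RPKM values, each with 2 groups. Per the file headers, each table adds the authors' own log2 fold changes, p-values and false discovery rates, and its name mentions edgeR. A further deposited column, a ranking score by which the authors ordered genes by p-value, was not used. According to the submitters' processing notes, bcl2fastq and TopHat2 2.1.1 were run, with GRCh38, a human build. The build and counting tool used for these worm genes are not given in the sources used here. Shared control columns were identical (largest difference 0.0). Gene models are from the WBcel235 annotation, by symbol. Whether counting used strand is not given.

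The main test was limma 3.58.1 in R 4.3.3 on log2(RPKM + 1) of the 8 libraries of a comparison. Genes had a mean RPKM of at least 1, eBayes used trend and robust variances, tests were 2-sided, and Benjamini-Hochberg adjusted p ran over all genes tested. Fold changes on this scale understate low genes. Whole reads were recovered for 25332 of 25332 genes above 0 (100.0%, tolerance 0.001), with the smallest length that made all values of a gene whole. For genes read in few libraries such a length is easily found, and the reads may be too low. Lengths were compared with the annotation for the lbp genes only. A fit by voom to the recovered reads was an alternative. The voom fit called 11854, 3, 11 and 0 genes in the 4 comparisons. Reads are not independent molecules, so read numbers cover counting error only.

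The main fits did not use the replicate numbers, and a block for them was an alternative. The numbers were treated as a possible pairing, because every same-number correlation was over 0.1. Some different-number correlations were over 0.1 too, so this rule alone does not show a pairing. Deviations of same-numbered libraries correlated at 0.12 to 0.27 (control and TU3401), 0.29 to 0.61 (mml-1 RNAi and control), 0.20 to 0.64 (mxl-2 RNAi and control) and 0.22 to 0.68 (both knockdowns). Libraries of different numbers reached 0.24, 0.27, 0.17 and 0.05 in these comparisons, so the pairing is least clear for the control and TU3401 and is a hint from the data and not from the labels. The other alternatives were a pseudocount of 0.1, no filter or a mean of 0.1, quantile and median-ratio scaling, a fit of all 4 groups, and leaving out each library. Members, lists and tests were chosen with earlier results of these data known. From each list, up to 2 called genes with the largest change in each direction are named, with lipl-4, nhr-49, nhr-80, nlp-11, the targets and glp-1. Scripts were checked on simulated data.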

Additional observations from a re-analysis of the deposited data

Results flagged for a closer look

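Among 120 groups of 4 libraries checked (30 genes), 12 held a library far from the other 3, and 5 of the 12 were in the 36 groups of lbp genes. Chance flags about 1 in 20 groups. For lbp-2, glp-1 control replicate 1 was lowest at 1915 RPKM (the others 2251 to 2312), and mxl-2 RNAi replicate 1 was lowest at 1718 RPKM (2071 to 2088). For lbp-5, mxl-2 RNAi replicate 3 was lowest at 72.5 RPKM (92.5 to 95.2). For lbp-8, replicate 3 was highest with mml-1 RNAi at 16.04 RPKM (5.38 to 6.52) and with mxl-2 RNAi at 21.7 RPKM (5.67 to 8.16).

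Of the knockdown targets, mml-1 was highest in mml-1 RNAi replicate 2 at 91.5 RPKM (22.9 to 28.9). The gene mxl-2 was highest in mml-1 RNAi replicate 3 at 308 RPKM (25.4 to 26.98) and in mxl-2 RNAi replicate 3 at 733 RPKM (29.3 to 90.7). Elsewhere, atgl-1 was highest in mxl-2 RNAi replicate 1 at 33.6 RPKM (15.5 to 16.8), far-3 in TU3401 replicate 2 at 104.6 RPKM (40.9 to 50.6), glp-1 in TU3401 replicate 2 at 75.6 RPKM (69.2 to 70.3) and nlp-11 in TU3401 replicate 3 at 16.8 RPKM (12.8 to 13.1).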

How the results depend on the processing

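For the glp-1 control against TU3401, 144 of 144 alternative values of the 9 members (16 settings) kept their direction and 141 their side of the threshold. The exceptions were lbp-1 and lbp-7 in 1 fit of all 4 groups (adjusted p = 0.120 and 0.0607) and lbp-7 without TU3401 replicate 1 (0.0523). In the knockdown comparisons no member was called under any of the 16 settings (lowest adjusted p 0.104, 0.128 and 0.705). The replicate block gave 60 genes called with mml-1 RNAi and 24 with mxl-2 RNAi, against 2 and 13 without it, and changed no call of a member. With mml-1 RNAi, a pseudocount of 0.1 gave 6 called genes, the fit of all 4 groups 39, and leaving out 1 library 0 to 53, a move of over 1.5 times for each of the 8 libraries. With mxl-2 RNAi, no filter gave 2, a mean of 0.1 gave 5, the fit of all 4 groups 25, and leaving out 1 library 1 to 16, a move of over 1.5 times for each control library and for mxl-2 RNAi replicates 2 and 3.

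Signs that changed belonged to uncalled values. Quantile scaling gave -0.0216 for lbp-3 with mxl-2 RNAi and -0.0084 for lbp-7 between the knockdowns. Leaving out 1 library gave log2 ranges of -0.0894 to 0.0979 for lbp-3 with mml-1 RNAi, and of -0.0697 to 0.118 for lbp-3, -0.48 to 0.11 for lbp-8 and -0.55 to 0.13 for mml-1 with mxl-2 RNAi. Between the knockdowns the ranges were -0.15 to 0.12 for lbp-1, -0.0135 to 0.0668 for lbp-3, -0.0149 to 0.217 for lbp-4, -0.106 to 0.0895 for lbp-6, -0.21 to 0.20 for lbp-7 and -0.0729 to 0.621 for lbp-8. The order of the levels moved 0 to 2 genes in TU3401 and in both knockdown groups when 1 library was left out. The cause of these changes was not tested. Depth limits lbp-8 most, with 10 to 218 reads a library.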
